A study of Mus musculus with 4 samples.

Results

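To determine whether the transcripts of the cell's intermediate filaments differ in Chd5-deficient neural stem/progenitor cells (NSCs), 9 genes were followed: the cytoplasmic filament genes Nes, Vim, Gfap, Nefl, Nefm and Ina, and the lamin genes Lmna, Lmnb1 and Lmnb2. They were chosen by name, and each of the 9 has 1 row among the 18169 rows of the deposited expression table. The 2 +/+ and 2 Chd5-/- samples are primary C57BL/6 NSCs, isolated from tissue around the ventricles of single newborn pups and kept in proliferation medium with epidermal growth factor and fibroblast growth factor 2. All 4 cultures shared this strain, tissue and medium. The labels give the genotype Chd5-/- without further detail of the allele. For age, the growth protocol gives postnatal day 1 for every culture, whereas the age entries give days 1 and 2 for +/+ replicates 1 and 2 and days 3 and 4 for Chd5-/- replicates 1 and 2. If the entries are right, age and genotype cannot be told apart. Values are in TPM, a transcript's share of all transcripts in the sample after correction for its length, so levels of different genes can be set side by side. The number of reads behind them is unknown.

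Intermediate filaments are ropes of coiled-coil proteins that give a cell its resistance to strain, and the mixture of subunits changes as a neural cell matures. Radial glia and NSCs build filaments from vimentin and nestin, nestin needing a partner such as vimentin to polymerize. Astrocytes add glial fibrillary acidic protein (GFAP), and neurons replace these with alpha-internexin and then with the neurofilament subunits. The lamins are the nuclear members of the family and line the inner nuclear membrane, where the B-type lamins stay bound through a lipid tail and the A-type lamins, products of Lmna, set the stiffness of the nucleus. The study used nestin as a marker of activated NSCs, vimentin as a general NSC marker and GFAP as a marker of astrocytes.

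The promoter windows of Vim, Nes and Gfap are shown because these genes carry the ratios of filament transcripts given below. Each is 300 bases around a start annotated by RefSeq in GRCm38.p6. The gene spans given below come from GENCODE M21, which can place the start elsewhere. The Nes window covers the start of its GENCODE span, whereas the Vim and Gfap windows lie inside theirs. Capitals mark matches on either strand to the TATA box letters TATAAA, the CCAAT box, the GC box GGGCGG and the cyclic AMP response element TGACGTCA. The matches do not overlap each other.
Vim, chr2:13574061-13574360, plus strand: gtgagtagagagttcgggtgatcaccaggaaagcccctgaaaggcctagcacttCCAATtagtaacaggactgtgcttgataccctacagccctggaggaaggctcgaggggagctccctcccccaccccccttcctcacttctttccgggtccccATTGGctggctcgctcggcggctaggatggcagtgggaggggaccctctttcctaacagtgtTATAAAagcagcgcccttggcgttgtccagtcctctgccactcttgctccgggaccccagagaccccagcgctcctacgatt
Nes, chr3:87970843-87971142, plus strand: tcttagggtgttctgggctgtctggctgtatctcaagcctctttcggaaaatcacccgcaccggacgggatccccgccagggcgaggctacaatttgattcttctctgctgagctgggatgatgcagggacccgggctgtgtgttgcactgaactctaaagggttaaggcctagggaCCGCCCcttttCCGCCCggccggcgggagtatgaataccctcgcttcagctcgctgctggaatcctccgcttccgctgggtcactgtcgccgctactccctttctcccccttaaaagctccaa
Gfap, chr11:102897151-102897450, minus strand: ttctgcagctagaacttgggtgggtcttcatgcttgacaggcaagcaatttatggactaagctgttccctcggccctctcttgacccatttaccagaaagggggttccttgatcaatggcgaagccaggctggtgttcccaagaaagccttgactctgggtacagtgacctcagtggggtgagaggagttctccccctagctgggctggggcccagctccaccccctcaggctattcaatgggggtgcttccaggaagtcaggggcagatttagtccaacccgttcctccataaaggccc
The Vim window holds 1 TATAAA and 2 CCAAT matches, the Nes window 2 GGGCGG matches, and the Gfap window none of the 4 motifs. Of 32851 promoter windows of this length, 13.6% hold TATAAA, 37.4% CCAAT, 35.7% GGGCGG and 1.79% TGACGTCA. The number of CpG dinucleotides was 11 for Vim, 18 for Nes and 3 for Gfap. These matches describe the letters only, and binding was not measured in this series.

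Chd5 itself was at 0.39 and 0.37 TPM in +/+ and at 0.06 and 0.04 TPM in Chd5-/- NSCs, the direction that the labels call for. Rows whose mean level reached 1 TPM, 12576 in all, entered a limma comparison of the genotypes on the log2(TPM + 1) scale. A log2 fold change here is Chd5-/- minus +/+ on that scale, and for low genes it is smaller than the true change. Its median over all rows was 0.34, so a gene near that value moved with the bulk of the table. The 2 +/+ samples had a rank correlation of 0.974 across these rows and the 2 Chd5-/- samples of 0.904. Of 10 markers of the labelled cell type, 5 had a log2 fold change above 0 and 5 below, against 29.6% of all rows below 0. At an unadjusted p-value under 0.05, 1 was lower, against 2.27% of all rows tested. This was Slc1a3 (-1.38, adjusted p = 0.162 in limma). Fabp7, Slc1a3 and Sox2 were abundant in all 4 samples, and for each both Chd5-/- values lay under both +/+ values. Of the 10 markers 3 lay lower in this way and 1 higher, against 13.0% and 46.3% of all rows tested. The 1 higher was Egfr, which the study used as a marker of activated NSCs. It was at 139 and 129 TPM in +/+ and at 147 and 324 TPM in Chd5-/- replicates 1 and 2. In +/+ replicates 1 and 2 Fabp7 was at 5892 and 4316 TPM, Slc1a3 at 1871 and 1620 and Sox2 at 439 and 442. These 3 were lowest in Chd5-/- replicate 1, at 1939, 442 and 201 TPM, against 3822, 1006 and 432 TPM in Chd5-/- replicate 2. Prom1 was instead highest in Chd5-/- replicate 1, at 45.3 TPM against 0.99 to 4.15 TPM in the other 3 samples. Slc1a3, Sox2, Egfr and Prom1 were picked after their values were seen.

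Of the 9 genes, 6 passed the minimum level and were tested. Adjusted over all rows, 0 of 6 passed a p-value of 0.05 in limma, against 0.0557% of all rows tested (0.0318% higher and 0.0239% lower), and 0 of 6 also had an unadjusted p-value under 0.05, against 24.1% of all rows. A log2 fold change below 0 was found for Nes, Vim and Gfap, 3 of the 6, against 29.6% of all rows. For Vim both Chd5-/- values lay under both +/+ values, and for Lmnb2 both lay above. Such separation was seen in 2 of the 6 genes, against 59.4% of all rows tested, of which 46.3% were higher and 13.0% lower. Counting the untested genes as well, 4 of 9 were separated, against 51.7% of all 18169 rows, and 3 of them (Vim, Nefl and Nefm) were lower, against 10.6%. The remaining 1, Lmnb2, was higher, against 41.1%. Nefl and Nefm were under 1 TPM in every sample, and their annotated spans overlap, so their values may not be independent.

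**Figure D1:**
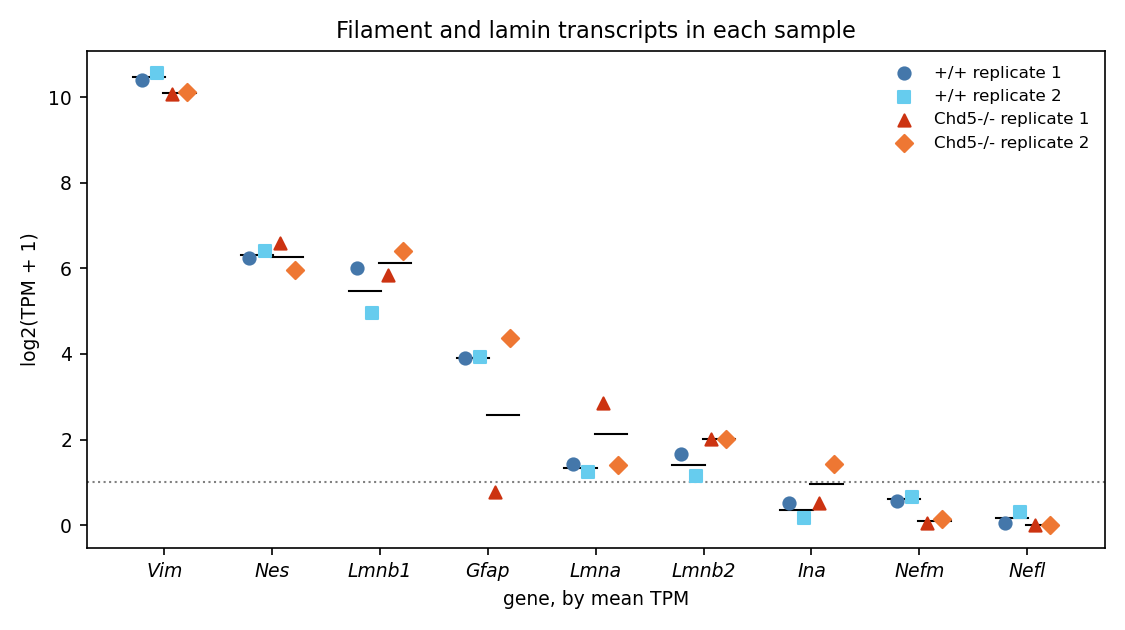
Level of each gene on the log2(TPM + 1) scale, with 1 point per sample, blue for +/+ and red or orange for Chd5-/-, a black bar at each mean (n = 2) and a dotted line at 1 TPM. Vim stands far above the rest in every sample, Gfap of Chd5-/- replicate 1 lies under the dotted line at 0.71 TPM, and the 3 neuronal genes lie near the floor.

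Vimentin was by far the most abundant filament transcript. Vim (chromosome 2 of GRCm38, 13573927 to 13582826, plus strand) was at 1354 and 1502 TPM in +/+ NSCs and at 1068 and 1118 TPM in Chd5-/- NSCs. Both Chd5-/- values were under both +/+ values, by a factor of 0.765 in the means. In the order of samples, Vim made up 89.6%, 92.0%, 86.9% and 86.8% of the summed TPM of the 9 genes. The log2 fold change was -0.38 (standard error 0.25, adjusted p = 0.387 in limma), or -0.72 relative to the median of all rows. Vim was the only tested member that lay below 0 with every setting tried, from -1.03 to -0.31, and its adjusted p-value ranged from 0.201 to 0.885. After median-of-ratios scaling, which centres the table near 0, the difference was -0.76 with an unadjusted p of 0.0319 and an adjusted p of 0.201.

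The RNA of nestin did not separate the genotypes. The study reported more nestin protein in Chd5-/- NSCs by immunofluorescence and western blot, and protein is not part of this series. Nes (chromosome 3, 87971078 to 87980451, plus strand), an unusually long filament protein of dividing neural progenitors, was at 74.7 and 83.2 TPM in +/+ NSCs. In Chd5-/- NSCs it was at 94.7 and 60.9 TPM, so that replicate 1 held the highest level of the 4 samples and replicate 2 the lowest. The means were 79.0 ± 6.00 and 77.8 ± 23.9 TPM (SD, n = 2 each). The log2 fold change was -0.05 (standard error 0.29, adjusted p = 0.923 in limma). It became 0.26 without Chd5-/- replicate 2 and -0.37 without Chd5-/- replicate 1, so the sign rested on which Chd5-/- culture was used. Relative to the median of all rows Nes was lower with every setting tried.

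The ratio of Nes to Vim RNA within a sample does not depend on how samples are scaled to each other. There were 18.1 and 18.0 Vim transcripts per Nes transcript in the +/+ samples. Chd5-/- replicate 2 gave nearly the same, 18.4, and Chd5-/- replicate 1 gave 11.3. On the log2(TPM + 1) scale the Nes/Vim ratio was -4.16 ± 0.0029 in +/+ and -3.83 ± 0.49 in Chd5-/- (SD, n = 2 each). The difference of 0.33 came from Chd5-/- replicate 1 and was -0.017 without it. By an exact two-sided permutation test p was 1, where the smallest p that 2 samples against 2 can give is 0.333.

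Gfap RNA showed the widest gap of the family, and it lay between the 2 Chd5-/- cultures. Gfap (chromosome 11, 102887336 to 102900912, minus strand) was at 13.89 and 14.31 TPM in +/+ NSCs, at 0.71 TPM in Chd5-/- replicate 1 and at 19.66 TPM in Chd5-/- replicate 2. The +/+ cultures were thus nearly equal, and the Chd5-/- cultures differed from each other 27.7-fold, 1 far below and 1 above both +/+ values. Only 0.604% of all rows tested had as large a gap on the log2 scale between these 2 samples. The log2 fold change of -1.34 had a standard error of 1.14 (adjusted p = 0.500 in limma). Without Chd5-/- replicate 1 it was 0.45 (adjusted p = 0.330). Without Chd5-/- replicate 2 it was -3.14 (adjusted p = 0.0124), a setting in which 8.64% of all rows passed, with the lone Chd5-/- sample assumed to vary as the +/+ samples do. In bulk RNA, fewer GFAP-expressing cells and less Gfap RNA per cell cannot be told apart.

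The other astrocyte markers of the list were read beside Gfap. All 8 were tested, and the limma p-value before adjustment was under 0.05 for 0, against 24.1% of all rows tested. None separated the genotypes, against 59.4% of all rows tested. Their summed level was 888 and 1203 TPM in +/+, 547 TPM in Chd5-/- replicate 1 and 1470 TPM in Chd5-/- replicate 2. Aldoc, a glycolytic enzyme of astrocytes, was at 293, 216, 22.6 and 321 TPM in the same order, and the glutamate transporter gene Slc1a2 at 327, 349, 70.5 and 361 TPM. Both were lowest in the culture with little Gfap. Gja1, the gap junction gene connexin 43, was not, at 180, 386, 333 and 434 TPM. Of the rest of the list, Fgfr3, Gjb6 and, narrowly, S100b were also lowest in Chd5-/- replicate 1. Aqp4 and Aldh1l1 were, like Gja1, lowest in +/+ replicate 1. Aldoc, Slc1a2 and Gja1 were picked after their values were seen. The Gfap/Vim ratio was -6.51 and -6.62 in +/+, -9.29 in Chd5-/- replicate 1 and -5.76 in Chd5-/- replicate 2 (log2 scale, exact p = 1). The difference between genotypes was -0.96 and turned to 0.80 without Chd5-/- replicate 1.

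**Figure D2:**
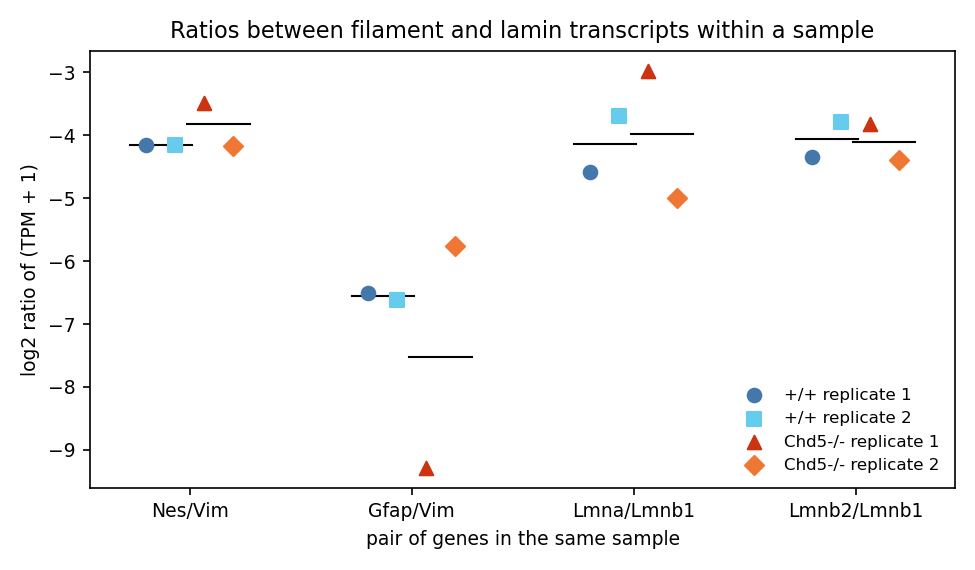
Log2 ratio of (TPM + 1) of a pair of genes within each of the 4 samples, with black bars at the genotype means (n = 2 each). The +/+ samples coincide in Nes/Vim and Gfap/Vim, Chd5-/- replicate 1 stands apart in both, and Chd5-/- replicate 2 lies with the +/+ samples in Nes/Vim.

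The neuronal filament transcripts were close to absent, all under 2 TPM in all samples. Nefl (chromosome 14, 68083863 to 68089095, plus strand), the light neurofilament subunit on which the others assemble, was at 0.03 and 0.24 TPM in +/+ and is listed at 0 in both Chd5-/- samples. Nefm (chromosome 14, 68082590 to 68124846, minus strand), the medium subunit, was at 0.48 and 0.59 TPM in +/+ and at 0.03 and 0.10 TPM in Chd5-/- NSCs, 0.121 times the +/+ mean. Both lay lower in the Chd5-/- samples. The annotated span of Nefm covers that of Nefl on the opposite strand. The library kit keeps the strand, but how reads were counted is not given in the sources used here, so these 2 values are uncertain where the genes overlap.

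Ina (chromosome 19, 47014698 to 47025327, plus strand), the alpha-internexin gene of young neurons, was at 0.43 and 0.13 TPM in +/+ and at 0.43 and 1.69 TPM in Chd5-/- NSCs. The genotypes met at 0.43 TPM. None of the 3 reached the minimum level for testing. When rows of any level were tested, Nefm had an unadjusted p of 0.00425 and an adjusted p of 0.194, Nefl an adjusted p of 0.440 and Ina of 0.409 in limma. The Nefm/Nefl and Ina/Nefl ratios rest on a gene listed at 0 and are set by the pseudocount. On the log2(TPM + 1) scale their differences were -0.35 and 0.80 (exact p = 0.333 each, the smallest possible, and 1.00 adjusted over the 6 pairs of genes compared). Of 10 neuronal markers, 6 were tested, and 0 passed the adjusted threshold in limma. At an unadjusted p-value under 0.05, 2 were higher and 1 lower, against 21.9% and 2.27% of all rows tested. These 3 were Gap43, a protein of growing axons (log2 fold change 1.84, adjusted p = 0.120), the synaptic vesicle gene Syt1 (1.60, adjusted p = 0.173) and Elavl3 (-0.94, adjusted p = 0.177), named after their values were seen. Gap43 was at 47.7 and 28.0 TPM in +/+ and at 147.9 and 120.7 TPM in Chd5-/- NSCs. The microtubule protein gene Map2 was the most abundant marker, at 503 and 516 TPM in +/+ and at 366 and 785 TPM in Chd5-/- NSCs. The neuronal tubulin gene Tubb3 was at 0.33, 0.29, 0.51 and 2.77 TPM, and Rbfox3, which marks mature neurons, was listed at 0 in 3 of the 4 samples.

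Among the lamins, Lmnb1 supplied most of the transcripts, 94.3% and 92.0% of the lamin TPM in +/+ and 85.7% and 94.7% in Chd5-/- NSCs. Lmnb1 (chromosome 18, 56707813 to 56753424, plus strand), which encodes lamin B1, was at 63.4 and 29.8 TPM in +/+ and at 56.2 and 83.5 TPM in Chd5-/- NSCs. The +/+ samples differed 2.13-fold, and Chd5-/- replicate 1 lay between them. The log2 fold change was 0.64 (standard error 0.43, adjusted p = 0.397 in limma). It stayed above 0 with every setting tried, and its size varied widely. It was 0.11 without +/+ replicate 2 and 1.17 without +/+ replicate 1, 0.36 and 0.92 with a Chd5-/- sample left out, 0.28 after median-of-ratios scaling and 0.11 with trends of GC content and transcript length removed.

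Lmnb2 (chromosome 10, 80901203 to 80918245, minus strand), which encodes lamin B2, was at 2.18 and 1.23 TPM in +/+ and at 3.06 and 3.01 TPM in Chd5-/- NSCs. Both Chd5-/- values were above both +/+ values. The log2 fold change was 0.60 (standard error 0.35, adjusted p = 0.348 in limma). It turned to -0.065 after quantile normalization and to -0.28 with trends of GC content and transcript length removed.

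Lmna (chromosome 3, 88480147 to 88509956, minus strand), whose transcripts encode lamins A and C, was at 1.68 and 1.37 TPM in +/+, at 6.29 TPM in Chd5-/- replicate 1 and at 1.64 TPM in Chd5-/- replicate 2. A single library stood above the other 3, which were alike. A gap as large between the 2 Chd5-/- samples was found in 8.50% of all rows tested. The log2 fold change was 0.80 (standard error 0.56, adjusted p = 0.416 in limma), against 0.07 without Chd5-/- replicate 1 and 1.53 without Chd5-/- replicate 2 (adjusted p = 0.0516). With the GC and length trends removed it was -0.21. The lamin A/C transcript was 2.50%, 4.22%, 9.59% and 1.86% of the lamin total in the order of samples. The Lmna/Lmnb1 ratio differed by 0.16 on the log2 scale (exact p = 1) and the Lmnb2/Lmnb1 ratio by -0.042 (exact p = 0.667), and neither sign held under other settings.

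Markers of mesenchymal cells were read in the same samples. The summed level of 8 mesenchymal markers was 0.18 and 0.45 TPM in +/+, 22.5 TPM in Chd5-/- replicate 1 and 0.44 TPM in Chd5-/- replicate 2. The number of these listed at 0 was 4, 5, 1 and 3. Acta2, smooth muscle actin, supplied 9.55 TPM of the sum in Chd5-/- replicate 1, Col3a1, a fibrillar collagen, 7.41 TPM, and Dcn, a proteoglycan, 4.17 TPM. The other 5 were under 1 TPM there, among them Col1a1, the main fibroblast collagen, listed at 0. Whether that culture held mesenchymal cells cannot be told from these values, and their part in the Lmna and Gfap values was not tested. Of 5 endothelial markers, 3 are in the table with a sum of at most 0.77 TPM, and of 6 microglial markers 1 is, with at most 0.17 TPM. The sums of the oligodendrocyte lineage list were 571 and 631 TPM in +/+ and 504 and 928 TPM in Chd5-/- NSCs. Of its 7 tested genes 0 had an unadjusted p-value under 0.05, against 24.1% of all rows tested. The ependymal sums were 2.44 and 2.85 TPM against 9.03 and 6.06 TPM, and the 1 gene tested, Foxj1, was higher in both Chd5-/- samples (log2 fold change 1.37, adjusted p = 0.122 in limma, or 0.45 with GC and length trends removed).

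Vim was the highest and Nefl at or near the lowest level in every sample, with changes of order between them. In +/+ NSCs it ran from Vim through Nes, Lmnb1 and Gfap to Lmnb2 and Lmna, then Nefm, Ina and Nefl. The neighbours Lmnb2 and Lmna overlapped in their 2 values, as did Ina and Nefl. In Chd5-/- NSCs Nes overlapped with Lmnb1, and Gfap spanned the values of both Lmna and Lmnb2. Nefm lay above Ina in both +/+ samples, and Ina above Nefm in both Chd5-/- samples, all at the low levels given above. In Chd5-/- replicate 2, but in no other sample, Lmnb1 exceeded Nes and Ina exceeded Lmna.

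The rows were divided into 10 bins of equal size by the GC content of their transcripts, and all 6 tested genes lay in bins 7 to 10. Lmna at 60.6% and Lmnb2 at 59.7% GC were in the highest bin, which had a median log2 fold change of 0.99, above the 0.80 and 0.60 of these genes. Nes and Gfap lay in a bin with a median of 0.72, and Vim and Lmnb1 in one with a median of 0.59. With the values as deposited, Lmnb1 was the only tested member above the median of its bin. With trends of GC content and length removed from each sample, 4 of the 6 genes separated the genotypes, all of them lower in Chd5-/- NSCs. With this setting 46.4% of all rows were separated, 21.3% higher and 25.1% lower. The 4 genes were Nes, Vim, Gfap and Lmnb2, with log2 fold changes of -0.71, -1.03, -2.01 and -0.28. Their adjusted p-values in limma did not pass the threshold. After quantile normalization 1 of the 6, Vim, was separated, and it was lower, against 54.3% of all rows with that setting, 24.2% higher and 30.1% lower.

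**Figure D3:**
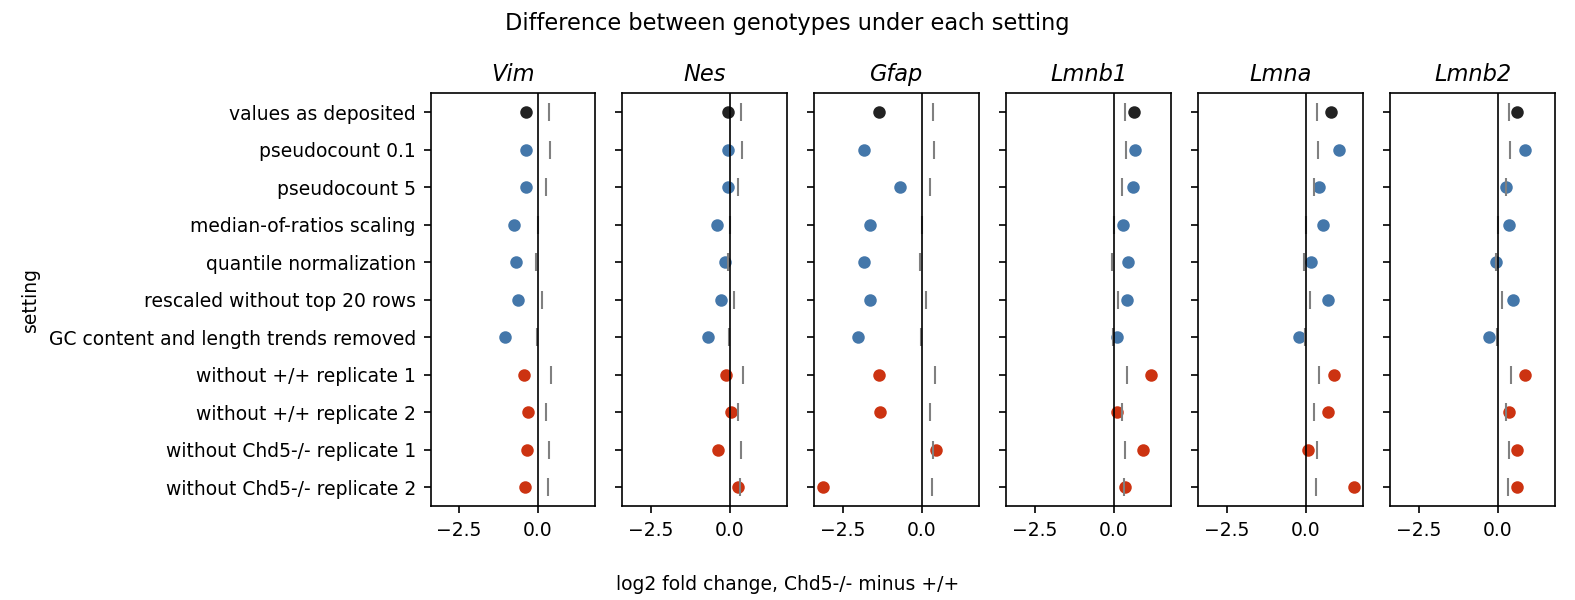
Log2 fold change (Chd5-/- minus +/+, x axis) of the 6 tested genes with the values as deposited (black), other processing (blue) and 1 sample left out (red). Grey ticks mark the median of all rows with the same setting. Vim stays left of 0 throughout, Gfap moves from -3.14 to 0.45 with the Chd5-/- sample left out, and Lmna and Lmnb2 cross 0 when GC and length trends are removed.

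Of 13 other intermediate filament genes, 11 are in the table and 5 were tested. In limma 0 passed the adjusted threshold, and 1 was higher at an unadjusted p-value under 0.05, against 21.9% of all rows. The median log2 fold change of the 5 was 0.63. Iffo1, a filament-like protein of the nucleus, was at 4.73 and 3.75 TPM in +/+ and at 8.97 and 8.94 TPM in Chd5-/- NSCs, which is 0.93 on the log2 scale (adjusted p = 0.155 in limma). It was 0.12 with the GC and length trends removed. Iffo2 had the lowest value, -0.35, and was 0.34 without Chd5-/- replicate 2. Synm, the gene of the vimentin partner synemin, named after its values were seen, was at 0.42, 0.50, 4.16 and 0.24 TPM, high in the same sample as Lmna. Nefh, the heavy neurofilament subunit, did not exceed 0.03 TPM. Without Chd5-/- replicate 1 the median of the list was -0.05, and with GC and length trends removed it was -0.20.

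Of the 11 linkers, chaperones and turnover factors, 7 were tested and 0 passed the adjusted threshold. At an unadjusted p-value under 0.05, 1 was higher, against 21.9% of all rows tested. The median log2 fold change of the 7 was 0.67. It was 0.31 without Chd5-/- replicate 2, 0.44 without +/+ replicate 2 and 0.23 with the GC and length trends removed. That 1 was Cryab, alpha-B-crystallin, a small heat shock protein that binds vimentin and GFAP filaments. It was at 10.4 and 24.8 TPM in +/+ and at 142 and 49.5 TPM in Chd5-/- NSCs, both above both +/+ values. Its log2 fold change was 2.31 (adjusted p = 0.134 in limma). It was 1.56 without Chd5-/- replicate 1 and 3.06 without Chd5-/- replicate 2. Trim2, a ubiquitin ligase of the light neurofilament subunit, had the lowest value, -0.23, and was 0.20 without +/+ replicate 2.

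All 13 partners of the lamina at the nuclear envelope are in the table and 12 were tested. In limma 0 passed the adjusted threshold, 5 were higher at an unadjusted p-value under 0.05, against 21.9% of all rows, and 0 lower, against 2.27%. The median log2 fold change was 0.55, and 7 of the 12 were separated upward, against 46.3% of all rows. Syne1, which encodes the linker nesprin-1, had the highest value of 1.64 (adjusted p = 0.126), from 7.09 and 12.91 TPM to 24.96 and 41.07 TPM. A second Syne1 row lay at 1.99, 4.75, 5.25 and 10.12 TPM. Sun2, its partner in the inner membrane, was at 8.34 and 5.48 TPM against 15.20 and 25.13 TPM, which is 1.40 on the log2 scale (adjusted p = 0.13). Lemd2 was at 1.21, Banf1, which ties chromatin to the envelope, at 1.12, and Tor1a, an ATPase of the envelope lumen, at 1.03. Tor1aip1 had the lowest value, -0.26, and was 0.023 without Chd5-/- replicate 1.

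The 5 envelope genes depended on the processing. With the GC and length trends removed, 1 gene of the list had an unadjusted p-value under 0.05 and the median was 0.03. Without +/+ replicate 2 there was also 1, with a median of 0.30. Syne1 was at 1.54 and Sun2 at 0.60 with the trends removed, while Lemd2, Banf1 and Tor1a were at 0.15, 0.28 and 0.35. Without Chd5-/- replicate 1, Sun2 (1.75, adjusted p = 0.0495) and Syne1 (1.99, adjusted p = 0.0459) passed the adjusted threshold. With that sample left out 9.92% of all rows passed it, and the lone Chd5-/- sample is assumed to vary as the +/+ samples do.

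The tails of the B-type lamins and of prelamin A are farnesylated, clipped and methylated by a short series of enzymes. Of the 5 enzyme genes tested, 0 passed the adjusted threshold, and 2, Rce1 and Fntb, were higher at an unadjusted p-value under 0.05, against 21.9% of all rows. The median log2 fold change of the 5 was 0.50. It was 0.27 without +/+ replicate 2 and turned to -0.13 after quantile normalization and to -0.10 with the GC and length trends removed. With a minimum of 10 TPM the genes above 0 dropped out of the list, and the median of the rest was -0.28. Rce1, the protease that removes the last residues, was at 5.42 and 3.54 TPM in +/+ and at 10.31 and 10.26 TPM in Chd5-/- NSCs, which is 1.06 on the log2 scale (adjusted p = 0.148). Fntb, the beta subunit of farnesyltransferase, differed by 0.83 (adjusted p = 0.200). Zmpste24, the protease that matures lamin A, was at 94.7 and 111.6 TPM against 80.2 and 76.1 TPM, which is -0.39 on the log2 scale (adjusted p = 0.324). All 5 genes separated the genotypes, 3 upward and 2 downward, against 46.3% and 13.0% of all rows. With GC and length trends removed Rce1 and Fntb were at 0.15 and 0.06, and 0 of the 5 had an unadjusted p-value under 0.05.

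**Figure D4:**
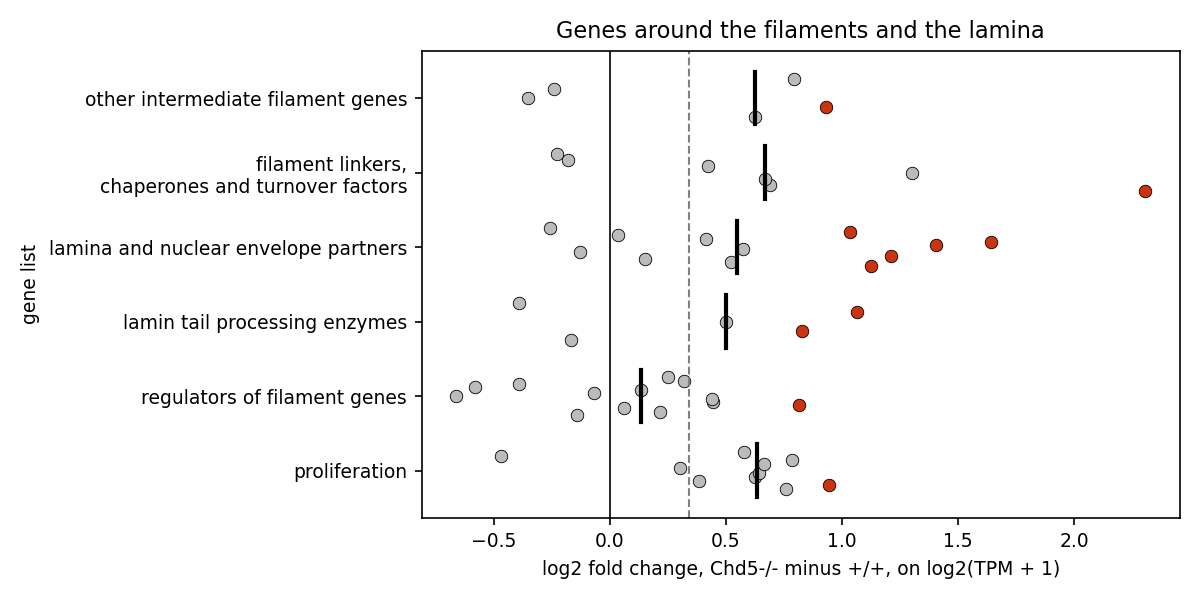
Log2 fold change (x axis) of each tested gene in 6 lists, with 1 point per gene, red for an unadjusted limma p-value under 0.05. Thick bars mark list medians and the dashed line the median of all rows, 0.34. The red points are 1, 1, 5, 2, 1 and 1 from the top list down, and Cryab lies farthest right.

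Of 13 regulators known to act on filament genes, 0 passed the adjusted threshold, and their median log2 fold change of 0.13 was under that of all rows. Its sign turned, to -0.12 without Chd5-/- replicate 2, to -0.46 once GC and length trends were removed and to -0.20 by median-of-ratios scaling. That scaling also moved the median of all rows, to 0.005, so the list lay under it before and after. At an unadjusted p-value under 0.05, 1 of the 13 was higher, against 21.9% of all rows tested. This was Nfic, of the nuclear factor I family that drives astrocyte genes (unadjusted p = 0.0480 in limma). Its log2 fold change of 0.81 turned to -0.21 with GC and length trends removed. Pou3f2, a POU factor of the family that binds the neural enhancer of Nes, was at 36.4 and 35.4 TPM in +/+ and at 15.5 and 32.0 TPM in Chd5-/- NSCs. Its log2 fold change was -0.66 (adjusted p = 0.339 in limma), or -0.16 without Chd5-/- replicate 1 and -1.16 without Chd5-/- replicate 2. Sox2, its partner at that enhancer and named after its values were seen, was at 439, 442, 201 and 432 TPM in the order of samples. Both factors were thus lowest in Chd5-/- replicate 1, the sample with the highest Nes level. Other POU factors of the list, also named after their values were seen, were not lowest there. Pou3f1 was at 1.56, 6.77, 11.15 and 2.01 TPM and Pou3f3 at 85.5, 62.7, 68.0 and 71.6 TPM in the order of samples. A part of these factors in the Nes values was not tested.

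Because the cultures were grown in proliferation medium, 10 proliferation genes were read beside Lmnb1. Their summed level was 849 and 575 TPM in +/+ and 760 and 884 TPM in Chd5-/- NSCs. The 4 samples stood in the same order by this sum as by Lmnb1, with +/+ replicate 2 the lowest and Chd5-/- replicate 2 the highest. Of the single genes, Mki67, Ccnb1 and Ccna2 shared this order and the others did not. Pcna, the most abundant on average, was at 359, 291, 284 and 192 TPM, lowest in Chd5-/- replicate 2. The part of proliferation in the Lmnb1 values was not tested. The median log2 fold change was 0.63, or 0.26 without +/+ replicate 2, 0.98 without +/+ replicate 1 and 0.30 once GC and length trends were removed. Of the 10 genes 0 passed the adjusted threshold. At an unadjusted p-value under 0.05, 1 was higher, against 21.9% of all rows tested. This was Birc5 (survivin), at 30.8, 17.8, 38.3 and 55.4 TPM (log2 fold change 0.95, adjusted p = 0.195). Pcna, the sliding clamp of DNA replication, had the lowest value, -0.47 (adjusted p = 0.366), and was lower in both Chd5-/- samples.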

How the data were processed

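The samples were primary NSC cultures, 2 +/+ and 2 Chd5-/-, measured by RNA-seq. The authors deposited TPM values in 1 table. The submitters' processing notes name Bowtie2 2.2.3, RSEM 1.2.20 and mm10; the gene annotation and counting settings are not given in the sources used here. TPM holds no read number, so precision rests on the 2 samples per genotype. The limma p-values set a difference against the spread between cultures. For this, each gene's variance is drawn toward a trend fitted over all rows tested.

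Rows averaging 1 TPM or more were tested on log2(TPM + 1) with limma 3.58.1 in R 4.3.3 (lmFit, eBayes with a trend, two-sided), with Benjamini-Hochberg adjustment over all 12576 rows. The fit was tested on simulated data. Ratios were compared by an exact permutation test. GC content and length came from GENCODE M21 of GRCm38 for 96.2% of the rows tested, and were removed from each sample by loess (span 0.5). The fit was repeated with pseudocounts of 0.1 and 5, with minimum levels of none and 10 TPM, after quantile normalization, after median-of-ratios scaling, with totals that left out the 20 highest rows, with eBayes lacking a trend, with a replicate block and without each sample.

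The genes and lists were chosen with earlier results of these data known. Named were the 9 genes, Chd5, the highest and lowest tested gene of each pathway list, genes with an unadjusted p-value under 0.05 in the filament, envelope and enzyme lists, and markers at 0 or of highest level. Other genes were named after their values were seen. Python 3.11.15, pandas 2.3.3, numpy 2.4.6 and matplotlib 3.10.9 were used.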

Additional observations from a re-analysis of the deposited data

How the results depend on the processing

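The number of the 6 tested members that passed the adjusted threshold in limma was 0 with every setting except that it was 1 (Gfap) without Chd5-/- replicate 2. Over all rows it was 7, and 4 with a pseudocount of 0.1, 0 with no minimum TPM, 1 after quantile normalization, 4 with GC content and length trends removed, and from 0 to 1247 with 1 sample left out. The count was 1247 without Chd5-/- replicate 1 and 1086 without Chd5-/- replicate 2. For the genes of the pathway and cell type lists the count of 0 became 10 without Chd5-/- replicate 1 and 14 without Chd5-/- replicate 2. The lists held 86 tested genes. Over all rows the count rose in the same fits as well, so the rise was not confined to the lists. In these fits the lone Chd5-/- sample is assumed to vary as the +/+ samples do. Members separating the genotypes numbered 2, but 1 after quantile normalization (against 54.3% of all rows) and 4 with the GC and length trends removed (against 46.4%). With 1 sample left out, the difference in log2 ratio ranged from -0.017 to 0.68 for Nes/Vim, -2.73 to 0.80 for Gfap/Vim, -0.86 to 1.17 for Lmna/Lmnb1 and -0.33 to 0.25 for Lmnb2/Lmnb1. Lmna/Lmnb1 was also -0.18 with a pseudocount of 5 and -0.32 with the trends removed, and Lmnb2/Lmnb1 was 0.19 with a pseudocount of 0.1. Reversed single genes were Nes (from -0.37 to 0.26 with 1 sample left out), Gfap (-3.14 to 0.45), Iffo2 (-1.04 to 0.34), Trim2 (-0.66 to 0.20) and Tor1aip1 (-0.54 to 0.023), as well as Lmna at -0.21 with the trends removed, Lmnb2 at -0.065 after quantile normalization and -0.28 with the trends removed, and Nfic at -0.21 with the trends removed. The causes were not tested.

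The labels do not pair samples of the same number, and the correlation of their deviations from the genotype means was -0.15. With the replicate number as a block, 0 rows passed over all rows, also with the trends removed, and 0 members. With the numbers crossed, an alternative chosen after seeing the data, 5 rows and 0 members passed. With 2 samples per genotype and unknown depth, differences such as those of Lmnb2 were not detectable beyond the spread between cultures.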
